A study of Homo sapiens with 8 samples.

Results

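The genes described here encode enzymes that add or remove methyl groups on lysine 4 of histone H3 (H3K4). They are the listed methyltransferase genes KMT2A, KMT2B, KMT2C, KMT2D, SETD1A and SETD1B and the listed demethylase genes KDM1A, KDM5A, KDM5B and KDM5C. These 10 genes were chosen by name from 23375 genes with a named accession in the count tables, and 9 of the 10 had such an accession. The accession of SETD1B was not matched to the tables, so its RNA was not analysed here. On GRCh37 the canonical start sites of the writers lie on chromosome 11 at 118307207 (KMT2A), 19 at 36208905 (KMT2B), 7 at 152133088 (KMT2C), 12 at 49454577 (KMT2D) and 122241915 (SETD1B), and 16 at 30969075 (SETD1A). Those of the erasers lie on chromosome 1 at 23345961 (KDM1A) and 202777549 (KDM5B), 12 at 498486 (KDM5A) and X at 53254389 (KDM5C). Of the 9 genes with an accession, 7 passed the filter on low counts and were tested (KMT2B, KMT2C, KMT2D, SETD1A, KDM1A, KDM5A and KDM5B).

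KMT2A to KMT2D (the MLL genes of older tables), SETD1A and SETD1B encode catalytic subunits of COMPASS-type complexes. SETD1A and SETD1B are associated mainly with trimethylation at promoters, KMT2A and KMT2B with developmental and CpG-rich promoters, and KMT2C and KMT2D with monomethylation at enhancers. KDM1A (LSD1) is a flavin-dependent enzyme that removes mono- and dimethyl groups, usually together with the CoREST corepressor, and the KDM5 enzymes remove tri- and dimethyl groups. KDM5A was described as a factor in drug-tolerant states of lung cancer cells treated with EGFR inhibitors, including PC9 cells. H3K4me2, the dimethylated form, marks promoters and enhancers and is both a product and a substrate of these enzymes.

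The study set PC9R, a line screened out of PC9 under gefitinib within 1 to 2 weeks, against PC9, a human lung adenocarcinoma line with an activating EGFR mutation. Both lines were grown in DMEM and used at passages 8 to 12, and neither the drug dose nor the number of clones in PC9R is stated in the labels. Each line has 2 RNA-seq libraries, 1 list of DNase hypersensitive sites (DHS, open chromatin) and 1 list of H3K4me2 ChIP-seq peaks made with Abcam ab7766. Counted reads totalled 32502455 (first library) and 16715426 (second library) for PC9R, against 32515891 and 16013058 for PC9. The titles do not state separate cultures for the libraries of a line, so p-values here reflect only how far libraries of a line differed, possibly for technical reasons. Gefitinib exposure is given for PC9R alone, so drug and line cannot be told apart.

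In outline, KDM1A was the tested member with the largest RNA difference. In the reads counted, which come from 1 of its 2 accessions and may be only part of its RNA, it was 4.61-fold lower in PC9R, in libraries that did not overlap. It did not pass in the main edgeR test (adjusted p = 0.255). It passed in edgeR with a term for the first or second library (adjusted p = 0.00123) and in DESeq2 (adjusted p = 0.0189). It did not pass in limma-voom (adjusted p = 0.233), nor in edgeR with other scalings or filters, or with GC correction without that term. The 6 other tested members had log2 fold changes between -0.47 and 0.34, and none passed in these fits. At the start sites, H3K4me2 covered fewer bases in PC9R for 10 of 10 members, where 95.5% of tested coding genes shared that direction. SETD1B, KDM1A and KDM5B lay far down that distribution, with PC9R to PC9 ratios of 0.236, 0.264 and 0.296 against a median of 0.598 over all genes. They were also the members with the most covered bases in PC9 (8158, 5822 and 8592 bp). They were not compared with genes of like cover in PC9.

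The sequences below show promoter bases of members described in these results, read from GRCh37 on the strand of the gene, 5′ to 3′, with CpG dinucleotides in capitals. The first is the stretch before the outermost annotated coding start site of KDM5B (chr1:202777616-202777865, minus strand, 19 CpG), which lay inside an H3K4me2 peak of PC9 and in no H3K4me2 peak of PC9R. The second is the matching stretch of KDM1A (chr1:23345686-23345935, plus strand, 19 CpG), the member whose RNA differed most. The third holds the bases of the KMT2D promoter that a DHS peak covered in both lines (chr12:49454690-49454860, minus strand, 11 CpG). None of these 3 stretches overlapped an annotated exon.
KDM5B promoter: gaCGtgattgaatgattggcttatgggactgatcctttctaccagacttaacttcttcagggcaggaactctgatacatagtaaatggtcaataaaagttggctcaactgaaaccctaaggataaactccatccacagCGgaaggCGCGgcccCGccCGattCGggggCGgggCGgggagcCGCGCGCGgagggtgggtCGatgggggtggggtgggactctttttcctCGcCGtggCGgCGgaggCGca
KDM1A promoter: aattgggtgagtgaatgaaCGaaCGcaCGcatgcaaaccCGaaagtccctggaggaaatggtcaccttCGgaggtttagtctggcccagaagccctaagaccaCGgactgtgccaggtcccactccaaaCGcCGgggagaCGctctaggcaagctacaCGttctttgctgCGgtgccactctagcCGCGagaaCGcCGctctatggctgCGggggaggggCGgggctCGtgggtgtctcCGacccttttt
KMT2D shared DHS bases: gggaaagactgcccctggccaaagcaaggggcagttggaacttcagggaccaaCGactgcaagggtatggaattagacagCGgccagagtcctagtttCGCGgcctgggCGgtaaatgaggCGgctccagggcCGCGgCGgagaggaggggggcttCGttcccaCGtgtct

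CpG density was not the same over the 10 promoters. Over the 250 bases before the canonical start site, KMT2C had 48 CpG, KMT2B 40 and KMT2A 31. KDM5B had 27, KMT2D, SETD1A and KDM1A had 23 each, KDM5A 18, SETD1B 17 and KDM5C 15. The median was 18 over 19471 coding genes and 22 over the 11004 coding genes tested for expression. The letters GGGCGG, on either strand, occurred in 8 of the 10 windows (not in those of SETD1B and KDM5C), against 72.1% of the tested coding genes. CCAAT, on either strand, occurred in 0 of these 10 windows, against 34.5% of the tested coding genes, although the KDM5B and KDM1A stretches printed above, which begin farther upstream, do hold it. In the canonical windows TATAAA occurred in 0 of 10, against 5.37%. These matches describe letters in these windows and say nothing of binding.

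The first and second RNA libraries differed in depth and along transcript GC content in both lines, and most members' values differed between the sets in the direction of their GC content. Among the 2972 genes lowest in GC (30.7% to 42.3%) the second library was higher by a median log2 of 0.81 in PC9R and 0.98 in PC9. Among the 2971 highest (57.4% to 76.0%) the median was -1.11 in PC9R and -1.15 in PC9. The GC-rich writers KMT2B (63.5% GC), SETD1A (62.6%) and KMT2D (59.8%) had fewer counts relative to library size (CPM, TMM-normalized) in the second library of each line: the second-to-first ratio of SETD1A was 0.481 in PC9R and 0.435 in PC9. KDM5A, at 42.7% GC, had ratios of 1.15 in PC9R and 1.63 in PC9. KDM5B, at 44.1% GC, went the other way in PC9R, at 0.627, and not in PC9, at 1.19. The labels name no batch, so the first and second libraries are called library sets here, a grouping made after depth and GC had been seen, and fold changes are also given within each set.

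Among the writers, the 3 GC-rich genes were lower in PC9R within both sets, but their libraries overlapped and none passed. With the library-set term the edgeR adjusted p was 0.165 for KMT2B, 0.213 for KMT2D and 0.254 for SETD1A. With GC correction added to that fit, the edgeR adjusted p values were 0.0829, 0.138 and 0.137. KMT2B had 158 and 92.6 CPM in the first and second PC9R library, against 239 and 109.6 CPM in the first and second PC9 library. The first libraries of both lines lay above the second libraries of both, so the lines overlapped (log2 fold change -0.47, SE 0.61, edgeR adjusted p = 0.999; -0.59 within the first set and -0.24 within the second). KMT2D, the writer with the most counts, had 431 and 263 CPM in PC9R and 566 and 319 CPM in PC9. Its lines overlapped in the same way, with a log2 fold change of -0.35 (SE 0.55, edgeR adjusted p = 0.999), -0.39 within the first set and -0.28 within the second.

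SETD1A, the catalytic subunit of one COMPASS complex, had 156 and 75.02 CPM in PC9R against 206 and 89.6 CPM in PC9. Again the set a library belonged to separated the values more than the line did, with a log2 fold change of -0.36 (SE 0.64, edgeR adjusted p = 0.999), -0.40 within the first set and -0.26 within the second. KMT2C, one of the enhancer monomethylases, was close to level, with 181 and 187 CPM in PC9R against 156 and 207 CPM in PC9. Both PC9R values lay between those of PC9, and the sign of the difference turned between the sets (0.21 in the first and -0.15 in the second; 0.02 in the fit, SE 0.51). KMT2C has related copies elsewhere in the genome and overlaps the pseudogene FABP5P3 over 1.41% of its exon bases, so its reads may be shared. Exons of other genes covered between 0.45% and 3.09% of the exon bases of KMT2B, KMT2D, SETD1A and KDM5A, and the sources used here do not say whether counting used strand. KMT2A had 4 and 4 counts in PC9R and 4 and 9 in PC9 over 2 accessions. Genes with more than 1 accession held only 6.74% to 7.07% of all counts of a library, so a value this low is not read as low expression of KMT2A.

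**Figure D1:**
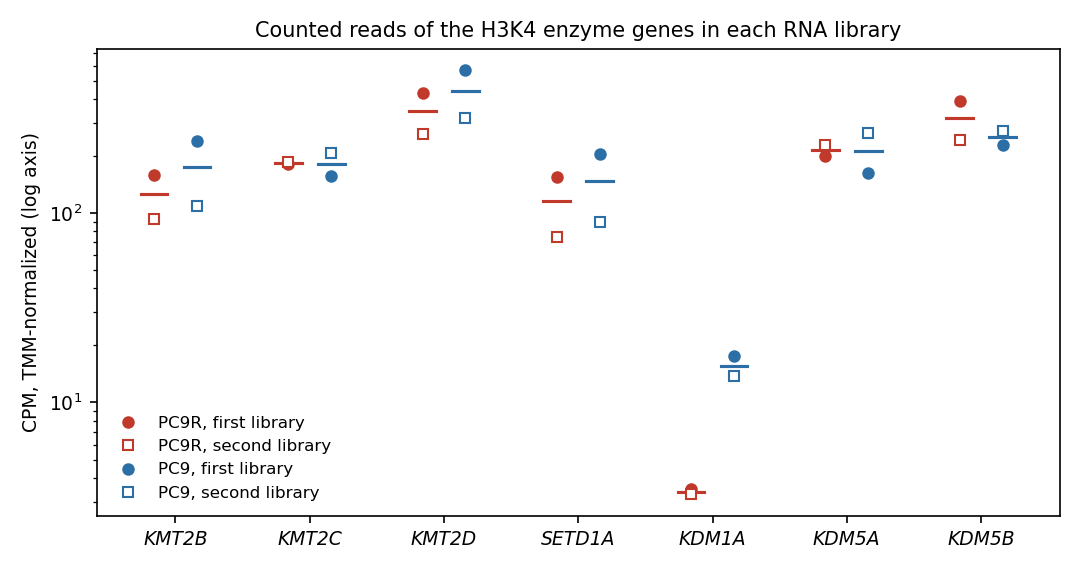
CPM (TMM-normalized, log axis) of the 7 tested H3K4 enzyme genes, with PC9R left of PC9 for each gene, filled circles for the first and open squares for the second library, and a bar at the mean. KDM1A is the gene whose lines do not overlap (3.50 and 3.27 CPM in PC9R, 17.5 and 13.8 CPM in PC9).

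Among the erasers, KDM1A stood apart. It had 123 and 55 counts in the PC9R libraries, against 559 and 206 counts in the PC9 libraries, or 3.50 and 3.27 CPM in PC9R against 17.5 and 13.8 CPM in PC9. Both PC9R libraries lay below both PC9 libraries, and the means were 3.39 ± 0.165 CPM in PC9R and 15.6 ± 2.68 CPM in PC9 (SD, n = 2 each). The log2 fold change was -2.21 (SE 0.62), with an edgeR unadjusted p = 0.00708 and an adjusted p = 0.255. The difference held within the first set (-2.30) and within the second (-2.05). With a term for the library set it passed, at -2.21 (SE 0.26, edgeR adjusted p = 0.00123). Over all alternatives run, its adjusted p lay between 0.00123 and 0.955, and its log2 fold change between -2.40 and -2.03. The fit with the term leaves 1 residual degree of freedom and rests largely on spread borrowed across genes. In bulk RNA, fewer cells expressing a gene and less RNA per cell cannot be told apart.

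Of the 12660 genes tested, 0.253% were called in the fit without the library-set term (0.19% higher and 0.0632% lower in PC9R) and 20.8% in the fit with it (11.2% higher and 9.57% lower). Members called were 0 of 7 in the first fit (edgeR, with 1 at an unadjusted p under 0.05, against 7.27% of all genes) and 1 of 7 in the second. Libraries of the lines did not overlap, with PC9R lower, for 1 of the 7 members and for 14.9% of all genes. Within both sets 4 of the 7 members were lower in PC9R and 0 were higher, against 37.4% and 36.6% of all genes. The median log2 fold change of the 7 was -0.35, beside -0.01 over all genes.

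The KDM1A difference concerns the reads of 1 of its 2 accessions, since the other held 0 counts in all libraries. As for KMT2A, its low CPM is therefore not read as its level of expression, and the fold compares only the reads counted. The sources used here do not say which bases separate the accessions. In GENCODE 44 lifted to GRCh37, the canonical KDM1A transcript (chromosome 1, plus strand, 21 exons) carries 2 coding exons that another coding transcript of the gene, KDM1A-201, lacks. They are shown because they are where annotated coding transcripts of KDM1A differ. The first spans chr1:23370920-23370979 and the second chr1:23392553-23392564. No capitals are used in this pair.
KDM1A longer alternative exon: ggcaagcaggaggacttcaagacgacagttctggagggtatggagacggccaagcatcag
KDM1A shorter alternative exon: gacactgtcaag

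KDM5A and KDM5B did not separate the lines. KDM5A, the first described member of its family, had 200.2 and 229 CPM in PC9R against 163 and 264 CPM in PC9. The PC9R values lay inside the range of PC9, and the difference was 0.30 within the first set and -0.21 within the second (0.01 in the fit, SE 0.53, edgeR adjusted p = 0.9999). KDM5B, a luminal-lineage demethylase in breast cancer, had 389 and 244 CPM in PC9R against 229 and 273 CPM in PC9. Its first PC9R library was the highest of the 4 and its second lay between the PC9 values, so that the log2 fold change of 0.34 (SE 0.52, edgeR adjusted p = 0.999) was 0.77 within the first set and -0.16 within the second. KDM5C, an X-linked family member with 3 accessions, was listed at 0 in all 4 libraries, and for the reason given for KMT2A that is not read as absence.

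**Figure D2:**
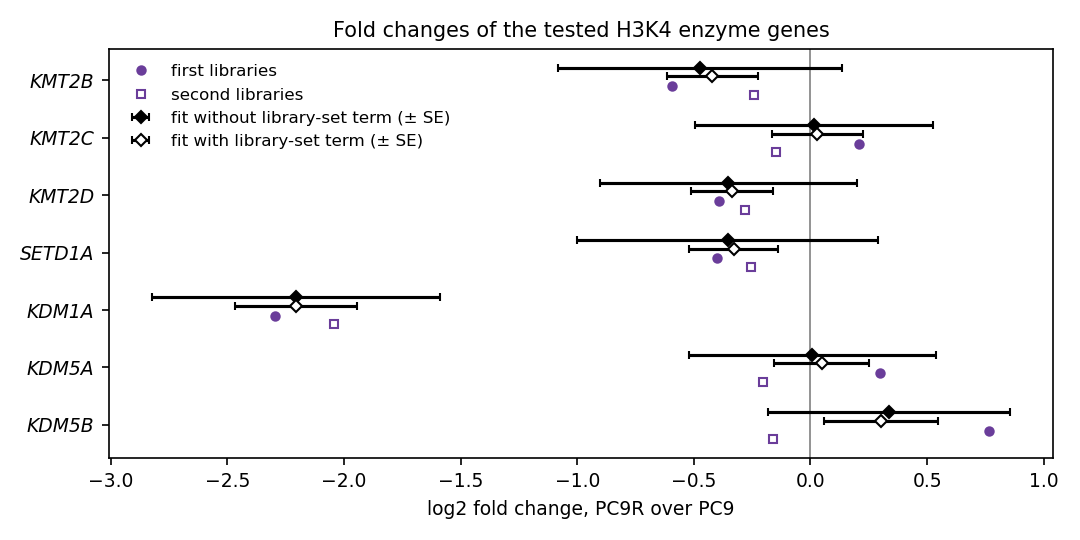
Log2 fold change of PC9R over PC9 for the 7 tested genes: filled diamonds from the edgeR fit without and open diamonds from the fit with the library-set term (bars, SE), circles within the first and squares within the second libraries. KDM1A lies at -2.21 in both fits, and the sign turns between sets for KMT2C, KDM5A and KDM5B.

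Summed over the 4 writers with 1 accession, CPM were 925.5 and 617 in PC9R against 1167 and 725 in PC9, a PC9R to PC9 ratio of 0.793 in the first set and 0.851 in the second. The sum of KDM5A and KDM5B was 589.5 and 473 CPM in PC9R against 391.7 and 537 CPM in PC9, a ratio of 1.51 in the first set and 0.881 in the second. The writers' sum was thus lower in PC9R in both sets, while the sum of these erasers changed sides between sets. Of all genes tested, 37.4% were lower in PC9R within both sets. For both sums the libraries of the lines overlapped, and KDM1A, with 2 accessions, was in neither sum. On CPM per kb of canonical transcript, KDM5B had the highest level in PC9R, at 34.1 ± 11.1, and KMT2C the lowest, at 10.9 ± 0.248 (SD, n = 2). In PC9 the order began with KDM5B, at 26.98 ± 3.32, and ended with KMT2C, at 10.8 ± 2.12. Neighbours in the order had overlapping libraries except KDM5B above KDM5A in PC9R and KDM5A above KMT2C in PC9.

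The 3 tested genes whose centred log2 CPM over the 4 libraries lay nearest to that of KDM1A were IGF2BP2, an RNA-binding protein gene with 2 accessions, UCN2, a urocortin peptide gene, and the histone gene H4C13. Their Euclidean distances were 0.106, 0.216 and 0.217, and their log2 fold changes -2.13, -2.39 and -2.32. With 4 libraries this is a description of likeness and no more. Marker genes showed epithelial cells in all libraries: 6 epithelial markers summed to 10230 and 6407 CPM in PC9R against 13860 and 7316 CPM in PC9. KRT19 was the largest part of each sum, and single markers went both ways. EGFR was lower in PC9R (531 and 1022 CPM against 1868 and 2052 CPM in PC9). CDH1 was higher in PC9R (666 and 517 CPM against 362 and 387 CPM in PC9). The 4 leukocyte markers summed to 17.3 and 13.6 CPM in PC9R against 8.62 and 8.68 CPM in PC9, most of it CD68, while PTPRC had at most 1 count. The 3 endothelial markers summed to 46.8 and 20.0 CPM in PC9R against 22.4 and 12.7 CPM in PC9, most of it CDH5 and PECAM1. The 4 fibroblast markers, DCN among them at 0 in all libraries, summed to 65.2 and 14.2 CPM in PC9R against 24.3 and 6.34 CPM in PC9. Most of that was COL1A1. The part of these markers in the KDM1A difference was not tested.

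RNA of genes for partners of these enzymes was tested in the same fits, and some passed only with the library-set term. None of the 12 tested COMPASS and MLL complex partner genes passed without it (0 at an unadjusted p under 0.05 in edgeR). With it 2 rose and 2 fell, in a fit where 11.2% of all genes rose and 9.57% fell. WDR82, a partner of the SETD1 complexes, had 148 and 259 CPM in PC9R against 291 and 489 CPM in PC9. Both PC9R libraries lay below both PC9 libraries, as they did for 14.9% of all genes. With the library-set term WDR82 fell by 0.94 on the log2 scale (SE 0.18, edgeR adjusted p = 0.00948). Without the term the edgeR adjusted p was 0.919. PSIP1, the LEDGF chromatin tether of MLL1 complexes (3 accessions), fell with the term at -0.97 (SE 0.25, edgeR adjusted p = 0.029).

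The 2 partners that rose with the library-set term were NCOA6 and KDM6A. NCOA6 (2 accessions), a coactivator subunit of KMT2C and KMT2D complexes, had 110.5 and 89.9 CPM in PC9R against 55.5 and 56.5 CPM in PC9. KDM6A, the H3K27 demethylase of the same complexes, had 57.8 and 90.4 CPM in PC9R against 31.7 and 52.9 CPM in PC9. Both PC9R libraries lay above both PC9 libraries for each gene, as they did for 16.9% of all genes. With the library-set term both passed, at 0.83 (SE 0.21, edgeR adjusted p = 0.025) for NCOA6 and 0.82 (SE 0.20, edgeR adjusted p = 0.0253) for KDM6A.

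Of the 15 tested KDM1A and KDM5 complex partners, 0 passed without the library-set term (0 at an unadjusted p under 0.05 in edgeR). With the term 0 rose and 1 fell, against 11.2% and 9.57% of all genes. The 1 that fell was HDAC1, the deacetylase subunit of CoREST, at 394 and 581 CPM in PC9R against 688 and 913 CPM in PC9. Its PC9R libraries lay below both PC9 libraries, as they did for 14.9% of all genes (with the term -0.73, SE 0.18, edgeR adjusted p = 0.0227). Within both sets 9 of the 15 partners were lower in PC9R and 4 were higher, against 37.4% lower and 36.6% higher of all genes. The median log2 fold change was -0.33 without the term.

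Other H3K4 enzymes and readers moved in both directions. With the library-set term 11.2% of all genes rose and 9.57% fell. Among 5 tested enzymes outside the main families, 0 passed without the term and KDM1B, the relative of KDM1A found at gene bodies, fell with it (40.98 and 65.4 CPM in PC9R against 62.0 and 111 CPM in PC9; log2 fold change -0.68, SE 0.20, edgeR adjusted p = 0.0459). Its libraries overlapped when pooled and were lower in PC9R within each set. Of 16 tested readers of H3K4, again 0 passed without the term, and with it 1 rose and 1 fell. ING5, a PHD-finger reader, had 61.1 and 62.4 CPM in PC9R against 31.3 and 28.8 CPM in PC9 (1.04 on the log2 scale with the term, SE 0.21, edgeR adjusted p = 0.0118). ING1, another PHD-finger reader (5 accessions), was at -1.18 with the term (SE 0.28, edgeR adjusted p = 0.0203).

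Over these partner, enzyme and reader lists, 48 of 56 genes were tested, and with the library-set term 3 rose and 5 fell, against 11.2% and 9.57% of all genes. Their median log2 fold change was 0.09 without the term. For comparison, the tested H3K27 (4 genes), H3K36 and H3K79 (7 genes) and H3K9 (9 genes) enzyme lists had 0 calls without the term (0 at an unadjusted p under 0.05 in edgeR). With it 1 gene, the H3K36 trimethylase gene SETD2, fell (152 and 238 CPM in PC9R against 248 and 371 CPM in PC9; -0.67, SE 0.18, edgeR adjusted p = 0.0332). The named genes of those lists that did not pass in either fit were the Polycomb gene SUZ12 at 0.17, the H3K27 demethylase gene KDM6B at 0.42, and the H3K9 demethylase genes KDM3B at 0.01 and KDM4A at -0.24.

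DHS peaks at the start sites did not follow 1 pattern. With 1 library per line and assay, no difference in peaks has a replicate check, and none was tested. A DHS peak lay within 1 kb of the start site of KMT2D, SETD1A, KDM5A and KDM5C in PC9R, and of KMT2D, SETD1A, SETD1B and KDM5A in PC9. That is 4 of 10 in each line, against 54.0% of the tested coding genes in PC9R and 45.8% in PC9. Not all members are among the tested genes, and over all coding genes the shares were 42.6% in PC9R and 31.8% in PC9. For KMT2D, SETD1A and KDM5A both lines had a peak, as for 35.7% of the tested coding genes. KDM5C (PC9R only) and SETD1B (PC9 only) were the members with a peak in 1 line. That state was found for 18.3% of the tested coding genes in PC9R only and 10.1% in PC9 only. Over all coding genes it was 17.7% in PC9R only and 6.9% in PC9 only. The KMT2D peaks spanned 191 bp in PC9R and 182 bp in PC9 and share the bases printed above. PC9 had a second KMT2D peak, 14 to 181 bp downstream of the start site, and PC9R had a second KDM5A peak, 130 to 315 bp downstream.

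In the gene bodies and flanks PC9R had more DHS peaks. Over the 10 genes with 5 kb on either side, PC9R had 37 DHS peaks and PC9 had 9. Of the PC9R peaks 31 had no overlapping PC9 peak (83.8%, beside 85.7% in the whole PC9R list), and 19 of the 37 lay in the large KMT2C gene. Over 1 kb from the start sites there were 32 peaks in PC9R, 29 of them without a PC9 overlap, and 4 in PC9, 1 of them without a PC9R overlap. The whole PC9R list was longer in the same direction, with 59600 peaks against 19648 in PC9.

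H3K4me2 was peaked at almost every member in both lines, and what differed was the width. A peak lay within 1 kb of the start site for 9 of 10 members in PC9R and 10 of 10 in PC9, against 93.3% of the tested coding genes in PC9R and 93.0% in PC9. Over all coding genes the shares were 71.2% in PC9R and 68.3% in PC9. Both lines had a peak at 9 of the 10 members and at 92.0% of the tested coding genes. KDM5B was the member with a peak in PC9 only, a state of 1.0% of the tested coding genes, while 1.3% had one in PC9R only. It has annotated coding start sites in more than 1 place, and a PC9R peak was present when all of these, or a window of 2 kb, were used. H3K4me2 peaks of the whole lists numbered 117861 in PC9R and 85246 in PC9, with median widths of 395 bp in PC9R and 546 bp in PC9. The widest was 3359 bp in PC9R and 11286 bp in PC9, and 0.328% of PC9R peaks were over 2 kb, against 8.06% of PC9 peaks.

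**Figure D3:**
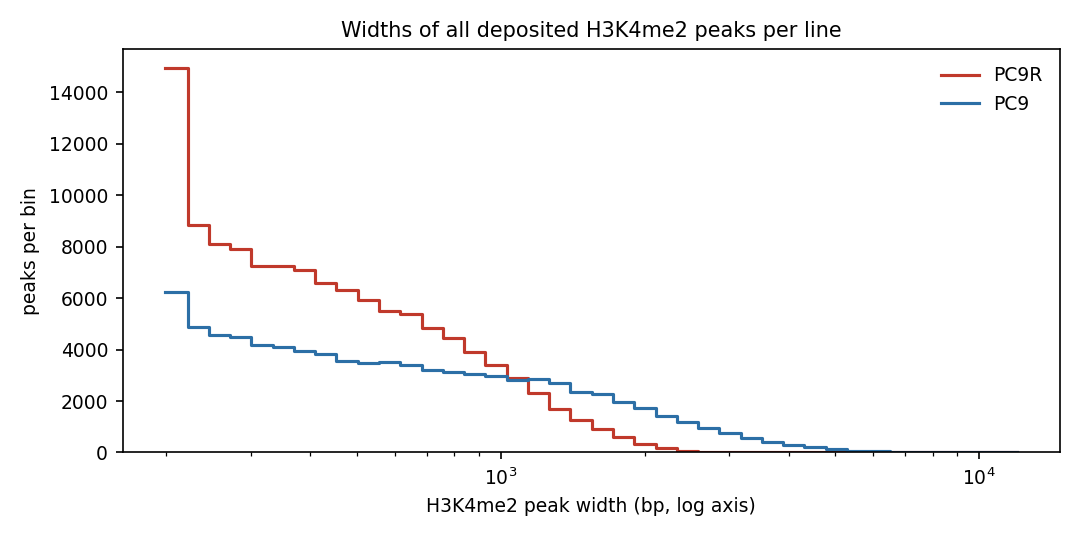
Number of H3K4me2 peaks by width (log axis, bp) in the whole deposited lists of PC9R and PC9. The PC9R curve is higher at narrow widths and ends at 3359 bp, while that of PC9 runs to 11286 bp.

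The narrowing was widespread at promoters and the members as a group lay near its middle. Within 5 kb of the start site, H3K4me2 covered a median of 2520 bp in PC9R and 4166 bp in PC9 over the 10 members, and 1664 bp in PC9R and 2841 bp in PC9 over 10444 tested coding genes with H3K4me2 in both lines. The median PC9R to PC9 ratio was 0.592 over the members and 0.598 over all these genes. The widest peak was narrower in PC9R at 8 of the 10 members, against 89.9% of genes, and the number of peaks was higher in PC9R at 4 of 10, against 31.5%.

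In PC9, KDM5B had the widest single H3K4me2 peak of the members. In PC9R it had 4 peaks within 5 kb of the start site, 249 to 963 bp wide, and the nearest began 1127 bp downstream. In PC9 a peak of 4682 bp ran from position -474 to 4207 relative to the start site, wider than 99.6% of the PC9 list, with a second peak of 3188 bp upstream. Covered bases were 2546 in PC9R and 8592 in PC9, a ratio of 0.296, at percentile 4.87 of the 10444 genes. The promoter sequence printed above lies from position -316 to -67 relative to the canonical start site, inside the PC9 peak. The RNA of KDM5B did not differ beyond the spread between libraries.

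SETD1B had the lowest ratio. In PC9R its 6 H3K4me2 peaks in the gene and 5 kb around it were 343 to 895 bp wide. In PC9 the peaks were 4 in number and 2209 to 4533 bp wide, the widest covering the start site. Within 5 kb of the start site 1922 bp were covered in PC9R against 8158 bp in PC9, a ratio of 0.236 at percentile 1.90. The DHS peak at this promoter was likewise found in PC9 only, and the RNA of SETD1B has no value here.

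KDM1A came next, and it is also the member whose RNA libraries separated the lines. In PC9R it had 3 H3K4me2 peaks of 352 to 703 bp, all between positions -695 and 1523 relative to the start site. In PC9 it had 9 peaks, of which 7 had no PC9R counterpart, and these 7 lay from 2049 to 14403 bp downstream. Their scores ranged from percentile 5.92 to percentile 66.8 of the PC9 list. Of the 48 PC9 peaks in all 10 genes with 5 kb on either side 33.3% had no counterpart, and of the whole PC9 list 29.8%. Covered bases within 5 kb were 1536 in PC9R and 5822 in PC9, a ratio of 0.264 at percentile 3.19. With only the peaks above the median score of each list, the ratio was 0.336, at percentile 11.9. Within 2 kb of the start site the ratio was 0.512, at percentile 22.9, so the bases without a PC9R peak lay mostly farther downstream. No DHS peak lay in or within 5 kb of KDM1A in either line.

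**Figure D4:**
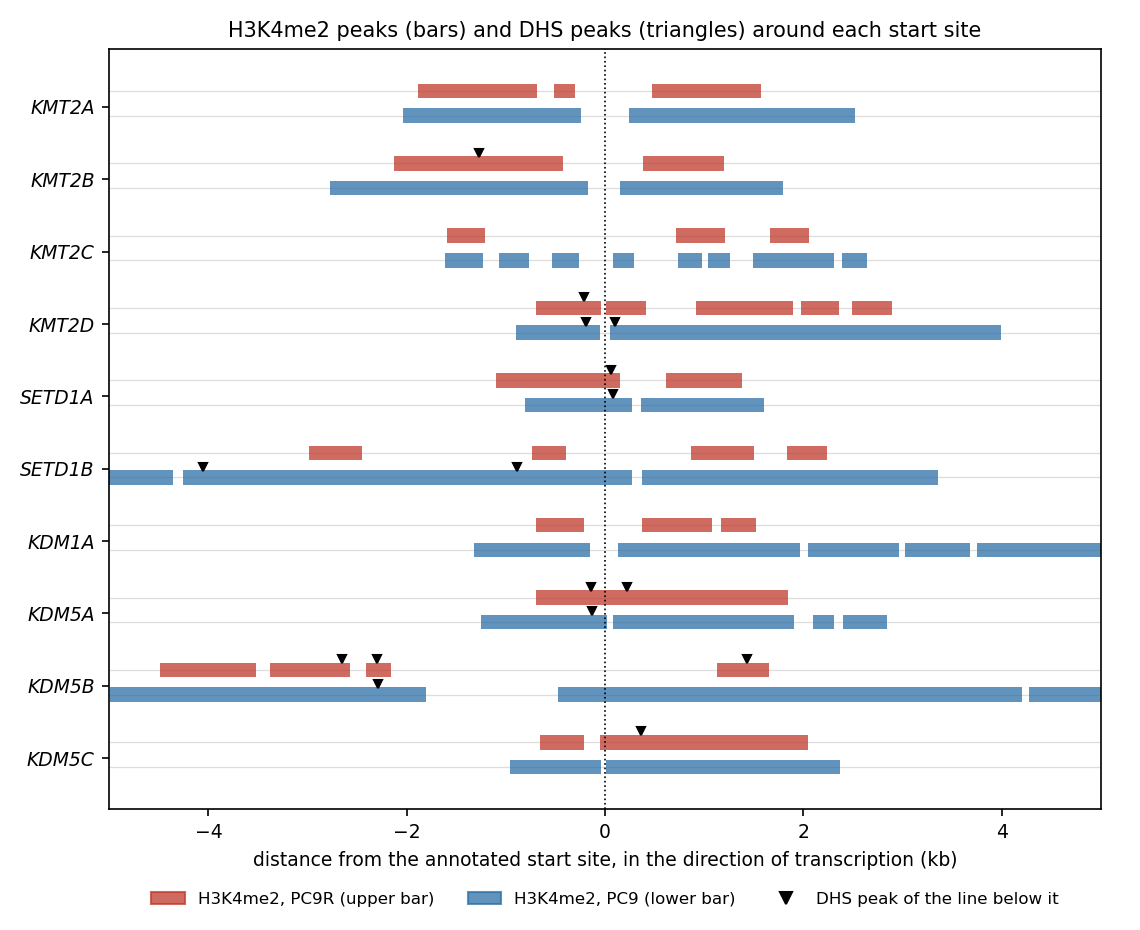
H3K4me2 peaks (bars, PC9R above PC9) and DHS peaks (triangles) by distance from the annotated start site (kb, positive in the direction of transcription) of the 10 genes. Long PC9 bars at SETD1B, KDM1A and KDM5B face short PC9R bars, while the bars of SETD1A and KDM5C are closest in length between the lines.

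The remaining writers were split. Downstream of the KMT2D start site PC9R had 4 separate peaks of 385 to 978 bp, where PC9 had a single peak of 3944 bp from 51 to 3994 bp downstream (covered bases 2825 in PC9R and 4793 in PC9, ratio 0.589). KMT2A (2512 bp in PC9R and 4080 bp in PC9, ratio 0.616) and KMT2B (2529 bp in PC9R and 4252 bp in PC9, ratio 0.595) sat at the middle of all genes. KMT2C had 3 peaks in PC9R and 8 in PC9, none over 813 bp, with 1274 bp covered in PC9R and 2685 bp in PC9 (ratio 0.475). SETD1A was almost the same in both lines, with 2019 bp covered in PC9R and 2318 bp in PC9 (ratio 0.871, percentile 89.5).

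The remaining erasers kept most of their width. KDM5A had a single PC9R peak of 2541 bp across the start site, where PC9 had peaks of 1832 and 1280 bp. The covered bases were 2541 in PC9R and 3770 in PC9 (ratio 0.674). KDM5C had 2543 bp covered in PC9R and 3278 bp in PC9 (ratio 0.776). A KDM5C peak of 2092 bp in PC9R, where the list ends at 3359 bp, was wider than 99.8% of the PC9R list. Over all 10 genes with 5 kb on either side, 54 PC9R peaks summed to 35675 bp and 48 PC9 peaks to 63031 bp, with median widths of 513 bp in PC9R and 911 bp in PC9.

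**Figure D5:**
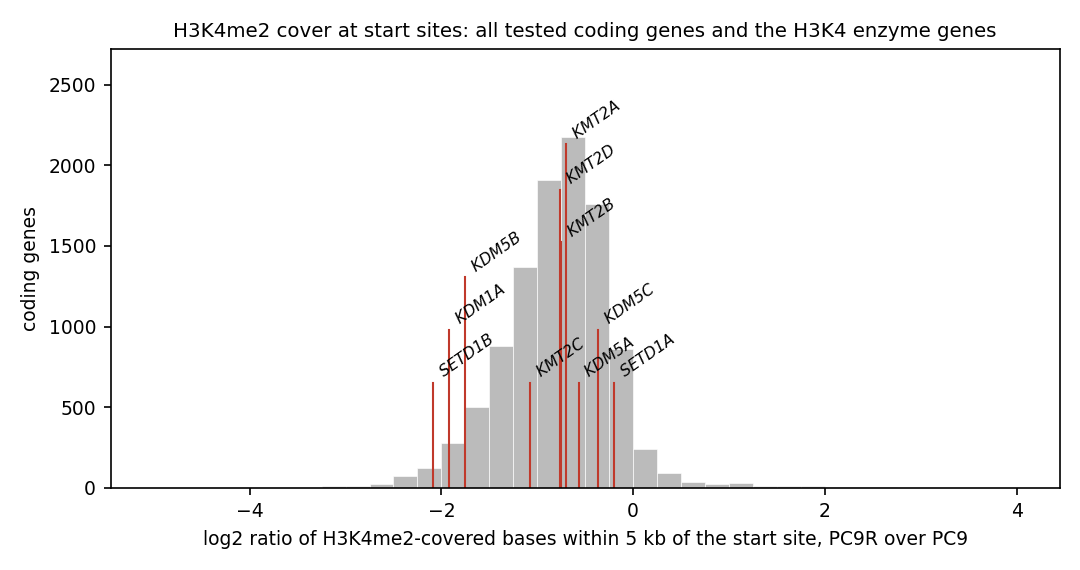
Log2 ratio, PC9R over PC9, of H3K4me2-covered bases within 5 kb of the start site for 10444 tested coding genes (grey, genes per bin) with the 10 H3K4 enzyme genes as red lines, whose heights carry no value. SETD1B, KDM1A and KDM5B lie in the lower tail (ratios 0.236, 0.264 and 0.296), SETD1A near the upper end at 0.871.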

How the data were processed

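RNA-seq, DHS and H3K4me2 data of PC9R and PC9 were used as deposited. The build hg19 and the tools TopHat, HTSeq, DESeq and MACS2 are listed, without roles or versions, per the submitters' processing notes. Not given in the sources used here: peak threshold, control library and counting mode. The authors deposited whole-number counts per RefSeq accession (42811 accessions) and peak lists with a score, whose scale is not stated and which served only to rank peaks within a list.

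Counts were summed per gene by names from a RefSeq gene table of GRCh38.p14, used for names only. The 1255 unmatched accessions were kept as rows and held 0.668% to 0.824% of counts. The test was two-sided edgeR 4.0.16 quasi-likelihood in R 4.3.3 (TMM, filterByExpr, Benjamini-Hochberg adjusted p under 0.05, 12660 genes, no block). CPM are TMM-normalized, log2 fold changes are PC9R over PC9, and a standard error (SE) is the log2 fold change over the square root of the F statistic. DESeq2 1.42.0 and limma-voom 3.58.1 were alternatives. The scripts were tested on simulated data.

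GENCODE 44 lifted to GRCh37 gave start sites, lengths and GC content, 1 canonical transcript per gene, and 0 peaks passed a GRCh37 chromosome end. A peak was at a start site if at least 1 bp lay within 1 kb of it, and covered bases were summed within 5 kb. The precision of peak values is unknown, since the sources used here give no depth behind the lists.

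The members and the 7 gene lists were chosen with earlier results of these data known. Named list genes were those called in either edgeR fit, at most 4 per list, and where there were none the 2 of highest mean CPM at most. For the member with the smallest p, the 3 nearest genes by centred log2 CPM were named. Sequences were read from GRCh37.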

Additional observations from a re-analysis of the deposited data

How the results depend on the processing

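Against 32 genes called by edgeR, 0 passed with upper quartile scaling (919 at an unadjusted p under 0.05) and 0 with at least 1 CPM in every library (431), 440 with no filter, 172 with GC correction, 381 with DESeq2 and 73 with limma-voom. Leaving out 1 library gave 83 to 254, with the lone library of a line assumed to vary like the other line. Members called were 0 in all of these except DESeq2, where 1 (KDM1A) passed (adjusted p = 0.0189). The labels pair no libraries, so the libraries share only a number, and across genes the difference between second and first library correlated at 0.788 between the lines. The replicate block gave 2631 genes and 1 member (KDM1A), and the block together with GC correction gave 2670 genes and 1 member (KDM1A). KDM1A was lower in PC9R under every alternative run.

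Some uncalled genes changed sign. With RLE scaling and with DESeq2, KMT2C was at -0.0070, KDM5A at -0.0159 and KDM3B at -0.0095. With no filter KDM5A was at -0.0049 and KDM3B at -0.0068, and KDM3B was at -0.0286 with the block and GC correction and -0.0249 with GC correction alone. With 1 library left out, the values lay between -0.96 and 0.19 for KMT2B, -0.18 and 0.21 for KMT2C, -0.75 and 0.11 for KMT2D, -0.97 and 0.36 for SETD1A, -0.31 and 0.38 for KDM5A, -0.0363 and 0.62 for KDM5B, -0.72 and 0.98 for SUZ12, -0.99 and 1.31 for KDM6B, and -0.12 and 0.116 for KDM3B. The positive ends of KMT2B, KMT2D and SETD1A came without the first PC9 library. The cause was not tested.

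Members with a DHS peak at the start site in PC9R numbered 2 with equal numbers of highest-scored peaks, against 4. H3K4me2 peaks numbered 58930 in PC9R and 42623 in PC9 above the median score (median widths 614 bp in PC9R and 1050 bp in PC9), 22020 in PC9R and 19157 in PC9 within 1 kb of a coding start site (691 bp and 17.05 Mb in PC9R, 1350 bp and 29.79 Mb in PC9), and 90042 in PC9R and 56274 in PC9 with peaks less than 0.5 kb apart joined (538 bp in PC9R and 908 bp in PC9). Over 1 kb from every coding start site the order of covered length turned round, with 43.27 Mb in PC9R and 41.58 Mb in PC9 (PC9R to PC9 ratio 1.041, against 0.845 over all peaks). Covered-base ratios under other windows and peak subsets were chosen after seeing the data. Of SETD1B, KDM1A and KDM5B, the ratio moved over 1.5 times only for KDM1A within 2 kb (0.512). The sources used here give no depth for the peak lists, and its part in the widths was not tested.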

Other observations

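DHS peaks of KMT2C lay outside H3K4me2 and away from its start site, while those of the other members included peaks at start sites. In PC9R 11 of the 37 DHS peaks in the 10 genes with 5 kb on either side overlapped an H3K4me2 peak of the same line, and in PC9 7 of 9 did. Over the whole lists the shares were 25.8% in PC9R and 52.2% in PC9. Without KMT2C the members had 11 of 18 (61.1%) in PC9R and 7 of 7 in PC9, peaks at start sites included. Over 1 kb from the start sites, with KMT2C, 6 of 32 overlapped in PC9R and 2 of 4 in PC9. KMT2C held 19 DHS peaks in PC9R and 2 in PC9, and 0 of the 19 and 0 of the 2 overlapped H3K4me2. They were spread along the gene, from 22768 to 297615 bp downstream of its start site by their centres in PC9R, and 17 of the 19 had no PC9 counterpart. The related copies of KMT2C may share DHS reads as they may share RNA reads, and their part in these peaks was not tested.

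DHS peaks found in PC9R only that overlapped H3K4me2 peaks of PC9R lay at KDM5B, KDM5A, KMT2B, KMT2D and KDM5C. Those of KMT2B, KMT2D and KDM5C were centred at positions -1273, 42255 and 366 relative to the start site. That of KMT2D lay past the end of its canonical transcript, in the 5 kb flank. KDM5A had such a peak near its start site, centred at position 223. KDM5B had a DHS peak centred 1434 bp downstream of the start site in PC9R only, within its nearest H3K4me2 peak, and another centred at position -2648, next to the DHS peak shared by the lines and partly overlapping an upstream H3K4me2 peak. KDM5A also had a DHS peak of 202 bp centred 55963 bp inside the gene in PC9R only. That peak partly overlapped an H3K4me2 peak of 407 bp that was also found in PC9R only. With 1 library per line these are single observations with no test.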
